A study of Saccharomyces cerevisiae with 12 samples.

Results

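The genes described here encode the proteins of the cytosolic small (40S) ribosomal subunit of *Saccharomyces cerevisiae*. They are all genes named *RPS0* to *RPS31* in the deposited table, A and B copies included, chosen by name and not by any measured value. This gives 56 of the 6691 genes in the table, which encode 32 proteins, 24 of them from a pair of copies and 8 from a single gene. The series holds 12 RNA sequencing libraries from *TRA1* and *tra1Q3* cells, with 3 libraries per genotype of young cultures (day 0) and 3 of cultures aged to day 3 in stationary phase. All cells were W303A derivatives of mating type MATa. They share the alleles leu2-3, his3-11 and ura3-1, beside ade2-1, trp1-1 and can1-100. By the methods of the study, both genotypes carry an integrated FLAG-tagged allele beside the *URA3* and *HIS3* markers and the plasmid YCplac111-*DED1pr-YHR100*, so the *TRA1* cells are tagged as well. The *tra1Q3* allele replaces arginine residues of the kinase-like domain with glutamine. The study calls the libraries of a group biological replicates.

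Tra1 is a large subunit shared by the SAGA and NuA4 complexes, coactivators that bring histone acetyltransferases to promoters. NuA4 acts at ribosomal protein genes, which in growing yeast are transcribed under the control of Rap1, Fhl1 and Ifh1 and are shut down together when nutrients run out or TORC1 is inhibited. The small subunit binds the mRNA, scans for the start codon and decodes it, and its head and its body with the platform hold different proteins around the 18S rRNA. Most of its proteins are encoded by a pair of genes left from an ancient genome duplication, so that the level of a protein can depend on both copies.

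Since the copies are alike, their sequences decide how well reads can be assigned to each. Identity of the coding sequences in the S288C reference (R64, RefSeq) ran from 84.3% for *RPS27A* and *RPS27B* to 99.2% for *RPS6A* and *RPS6B*. In 22 of the 24 pairs at least 82.5% of all windows of 100 coding bases were found nowhere else in the coding sequences of the genome. In Rps6 46.2% of the windows were unique, so the split between its copies is limited. The last 120 coding bases (313 to 432) of the *RPS16* copies, the pair whose copies differed most between the genotypes at day 3, are shown with the differing bases in capitals. *RPS16A* is YMR143W (chrXIII:551928-552903, forward strand) and *RPS16B* is YDL083C (chrIV:306926-307789, reverse strand), each with 1 intron.
RPS16A: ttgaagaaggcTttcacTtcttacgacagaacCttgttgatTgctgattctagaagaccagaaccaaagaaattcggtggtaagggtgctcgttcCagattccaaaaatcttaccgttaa
RPS16B: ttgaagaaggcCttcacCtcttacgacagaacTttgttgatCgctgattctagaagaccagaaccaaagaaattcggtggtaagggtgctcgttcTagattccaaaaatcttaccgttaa
The copies differed at 5 positions in this stretch and at 28 of 432 coding bases in all. The last 120 coding bases (592 to 711) of *RPS6A* (YPL090C, chrXVI:377291-378395, reverse strand) and *RPS6B* (YBR181C, chrII:591712-592774, reverse strand) are shown in the same way, because few bases tell these copies apart.
RPS6A: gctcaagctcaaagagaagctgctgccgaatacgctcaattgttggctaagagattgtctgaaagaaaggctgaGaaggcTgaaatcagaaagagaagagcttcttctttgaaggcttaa
RPS6B: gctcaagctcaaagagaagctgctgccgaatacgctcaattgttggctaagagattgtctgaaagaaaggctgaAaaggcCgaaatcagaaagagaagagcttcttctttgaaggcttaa
They differed at 2 positions in this stretch and at 6 of 711 coding bases in all. Reads that lie between such positions map to both genes and were not counted. Of the 56 genes, 36 have an intron and 20 have none. The coding sequence of *RPS2* overlaps YGL123C-A over 231 of its 765 bases and that of *RPS27A* overlaps YKL156C-A over 117 of 249, and such shared bases can cost these genes reads because strand was not used in counting.

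Total counts per library ranged from 20662125 to 28079682, and the lowest count of any member in any library was 506, so all 56 passed the filter on low counts in every comparison. Replicate 2 of the aged *TRA1* cells stood apart, since the median chi-square ratio between libraries, where 1 is counting error alone, was 76.7 and 80.1 for the pairs with it and 10.2 for the other pair of that group. In the other groups this ratio was 2.84 to 4.45. Of the *tra1Q3* cells at day 0, replicates 2 and 3 held summed normalized counts of 8417 and 7945 for 8 transcripts of aged cells, against 2029 in replicate 1 and 658553 to 750036 in aged *TRA1* cells. All 5 MATa markers and all 4 MATα markers were detected in every group. The MATα sum was 1156 to 1203 in *TRA1* cells and 19629 to 21609.6 in *tra1Q3* cells at day 0, and 2691 to 3136 and 10985 to 13443 at day 3. The MATa sum was likewise higher in *tra1Q3* cells, at 59853 to 62921 against 26989.9 to 28792 at day 0, and the part of these transcripts in the results was not tested. The *TRA1* transcript, whose point mutations counts cannot show, had normalized counts of 16039 ± 322 in *TRA1* cells and 23253 ± 992 in *tra1Q3* cells at day 0, and of 14123 ± 572 and 44159.8 ± 917 at day 3 (SD, n = 3).

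The 56 genes took a similar share of the transcriptome in both genotypes at day 0 and a much smaller share at day 3, smaller in *tra1Q3* than in *TRA1* cells. In *TRA1* cells at day 0 they held 6.0%, 6.25% and 5.94% of all counts on named genes in replicates 1 to 3, and in *tra1Q3* cells 5.92%, 5.83% and 6.26%, so that the genotypes overlapped. In aged *TRA1* cells the share was 0.973%, 1.37% and 0.888%, with the highest value in replicate 2. In aged *tra1Q3* cells it was 0.486% in replicate 2, 0.485% in replicate 3 and 0.483% in replicate 4, below each aged *TRA1* library. The group means were 6.06% ± 0.165 and 6.01% ± 0.223 at day 0 and 1.08% ± 0.258 and 0.485% ± 0.00172 at day 3 (SD, n = 3). The share was thus 5.63-fold lower after aging in *TRA1* cells and 12.4-fold lower in *tra1Q3* cells, and 2.22-fold higher in aged *TRA1* than in aged *tra1Q3* cells (1.92-fold without replicate 2). The exact two-sided permutation test gave p = 0.6 at day 0 and p = 0.1 for the other comparisons, the smallest value that 3 against 3 libraries allow. Counts are relative to the library, so fewer transcripts of these genes per cell and more RNA of other genes cannot be told apart. The 81 genes of the large subunit, counted in the same way, held 7.49% and 7.59% at day 0 and 1.35% and 0.718% at day 3 in *TRA1* and *tra1Q3* cells, respectively.

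**Figure D1:**
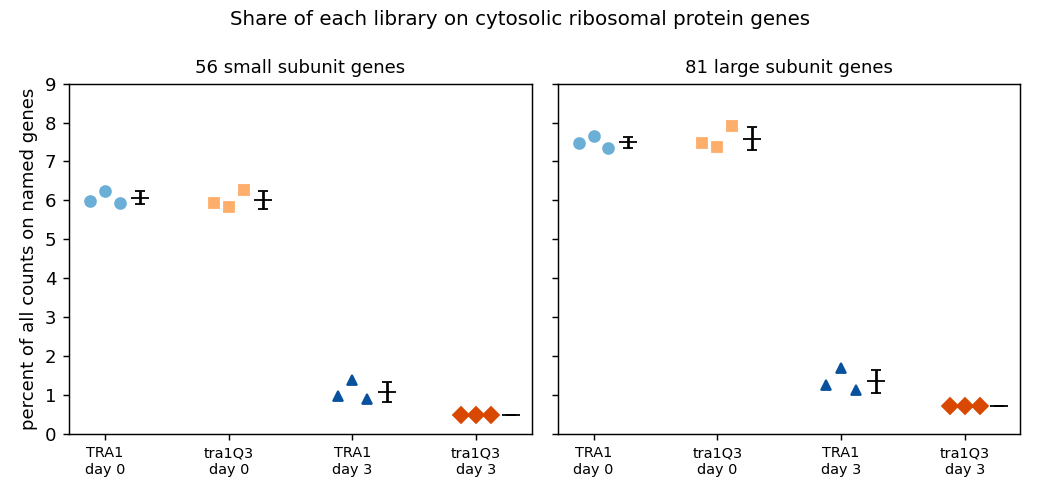
Percent of all counts on named genes that fell on the 56 small subunit genes (left) and the 81 large subunit genes (right), with one symbol per library and the group mean with its SD (n = 3) beside it. The day 0 groups overlap near 6.0% for the small subunit, and all aged *tra1Q3* libraries lie between 0.483% and 0.486%, below every aged *TRA1* library.

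Before aging, the genotypes differed little at these genes. At an adjusted p of 0.05 or less (quasi-likelihood test of edgeR, Benjamini-Hochberg adjustment over all genes), 15 of 56 members were higher in *tra1Q3* cells, against 35.0% of all genes tested, 6 were lower, against 33.7%, and 35 were not called. No difference exceeded 1 on the log2 scale in either direction, against 3.31% of all genes higher and 2.76% lower by that much, and the median was 0.03 beside 0.01 for all genes. The number of members called depended on the setting, and the median over the members was -0.06 to 0.09 under the alternatives. Leaving out the *tra1Q3* libraries of replicates 2 and 3, which carried aged transcripts, left 1 *tra1Q3* library, so no calls are given for that fit. The genotypes did not overlap at 13 higher and 5 lower members, against 36.2% and 35.3% of all genes.

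The highest values in *tra1Q3* cells at day 0 belonged to 3 genes that were the less abundant copy of their pair in *TRA1* cells. *RPS9A*, the less abundant gene for a protein that helps set decoding accuracy, had normalized counts of 5790.3, 5881 and 5994 in *TRA1* cells and 9976, 10219 and 10328 in *tra1Q3* cells. Every *tra1Q3* library lay above every *TRA1* library, with a log2 fold change of 0.79 ± 0.0387 (SE, edgeR adjusted p = 3.88e-12). *RPS28A*, for a protein near the mRNA exit, read 13516, 15729 and 13406 against 22711, 23818 and 26417, also without overlap, with a log2 fold change of 0.78 ± 0.0619 (SE, edgeR adjusted p = 3.54e-09). *RPS14B*, whose splicing is known to be repressed by the Rps14 protein itself, read 4172, 4368 and 4382 against 7205, 6763 and 7811. Its log2 fold change was 0.75 ± 0.0479 (SE, edgeR adjusted p = 1.53e-10), and the groups did not overlap. The lowest values were small. *RPS7B*, for a target of the ubiquitin ligase Not4, had 11996 ± 162 normalized counts in *TRA1* and 9148 ± 383 in *tra1Q3* cells (SD, n = 3), and its log2 fold change was -0.39 ± 0.0417 (SE, edgeR adjusted p = 1.74e-07). *RPS22B* was at -0.33 ± 0.0449 (SE, edgeR adjusted p = 3.88e-06) and *RPS25B*, for a protein used in internal initiation, at -0.29 ± 0.0487 (SE, edgeR adjusted p = 4.54e-05) on the log2 scale. *RPS9A* and *RPS22B* were not called when all 12 libraries shared 1 fit, at an adjusted p of 0.133 and 0.309 by edgeR.

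After aging, most of the members were lower in *tra1Q3* than in *TRA1* cells. Of the 56, 44 were lower in *tra1Q3* cells, against 36.4% of all genes tested, 1 was higher, against 35.1%, and 11 were not called (edgeR, adjusted p of 0.05 or less). Of the 44, 28 were lower by more than 1 on the log2 scale, against 15.6% of all genes, and no member was higher by that much. The median log2 fold change over the members was -1.01, beside -0.02 over all genes. In counts scaled over all 12 libraries, the genotypes did not overlap at 48 lower members and 1 higher member, against 42.4% and 34.8% of all genes. Without replicate 2 of aged *TRA1* cells, the median over the members was -0.83. Under library totals, which moved the median of all genes to -0.31, the median of the members was -1.34.

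The largest difference between the genotypes was at *RPS0A* (YGR214W, chrVII:920575-921788), for a protein on the back of the subunit needed in its late maturation. Its normalized counts were 4790.1, 5490.1 and 4688 in aged *TRA1* cells and 1071, 1022 and 1011 in aged *tra1Q3* cells. The groups lay far apart, with a log2 fold change of -2.17 ± 0.0918 (SE, edgeR adjusted p = 3.4e-06), or 4.5-fold. Fold changes between genotypes were scaled within the day and normalized counts over all 12 libraries, so they need not match. At *RPS1B* (YML063W, chrXIII:146482-147249), for a platform protein near the mRNA exit, the values were 6363, 7099.7 and 6389 against 1502, 1592 and 1523. The log2 fold change was -2.0 ± 0.084 (SE, edgeR adjusted p = 3.4e-06), with no overlap. *RPS24B* (YIL069C, chrIX:231553-232369), for a protein whose human counterpart is mutated in Diamond-Blackfan anemia, read 3126, 5190.4 and 2504 against 968, 932 and 876, the *TRA1* value of replicate 2 being the highest. Its log2 fold change was -1.86 ± 0.253 (SE, edgeR adjusted p = 0.000447), and -1.52 without that library.

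At the other end stood *RPS16A*, for a head protein whose tail reaches the tRNA in the P site. It read 4675, 4791 and 4047 in aged *TRA1* cells and 5811, 5865 and 5537 in aged *tra1Q3* cells, so every *tra1Q3* library was higher. The log2 fold change was 0.45 ± 0.0923 (SE, edgeR adjusted p = 0.00348), the only value above 0 that was called. At day 3 the replicate block compares the genotypes through replicates 2 and 3 alone, as the other libraries have no partner of the same number. *RPS16A* was not called with that block (0.47, edgeR adjusted p = 0.113) or under library totals (0.15, edgeR adjusted p = 0.306). Its copy *RPS16B* read 3629, 4466 and 3165 against 1051, 1136 and 1110.2, lower in every *tra1Q3* library, with a log2 fold change of -1.67 ± 0.13 (SE, edgeR adjusted p = 3.03e-05). *RPS28A* was at 0.09 ± 0.101 (SE, edgeR adjusted p = 0.425) and *RPS27A*, for a zinc-binding platform protein, at 0.09 ± 0.271 (SE, edgeR adjusted p = 0.776). For *RPS27A* the *TRA1* libraries spread from 1026 to 2348 around the *tra1Q3* values of 1527 to 1599, and without replicate 2 of aged *TRA1* cells its value was 0.49 (edgeR adjusted p = 0.000543).

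**Figure D2:**
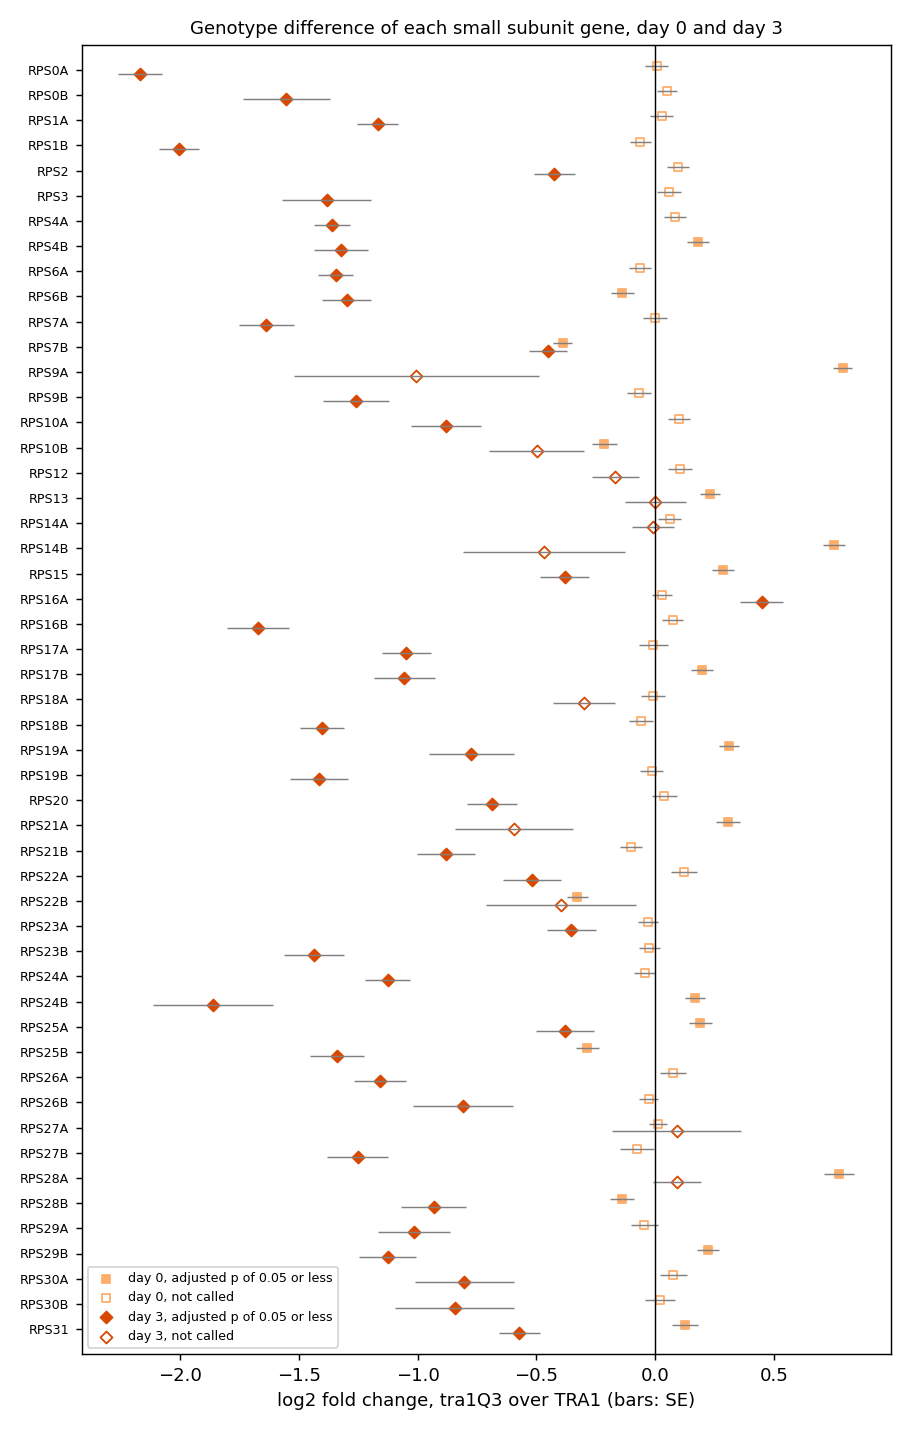
Log2 fold change of *tra1Q3* over *TRA1* cells for 51 of the 56 genes at day 0 (squares) and day 3 (diamonds), with the SE as bars and filled symbols for an adjusted p of 0.05 or less. Day 0 values lie between -0.39 and 0.79, whereas day 3 values reach -2.17 at *RPS0A* and are above 0 with a filled symbol only at *RPS16A* (0.45).

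**Figure D3:**
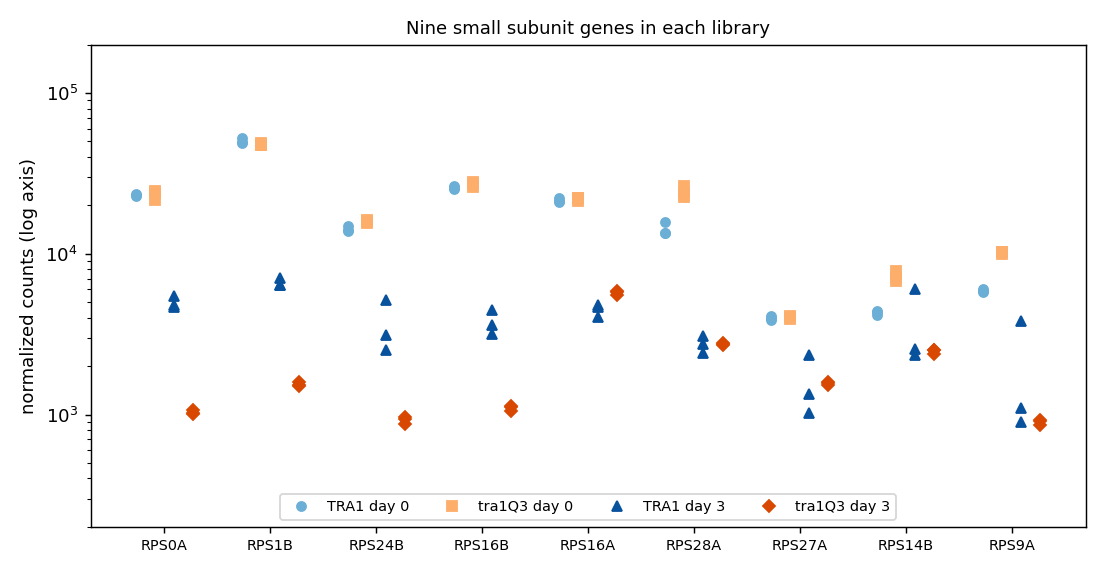
Normalized counts (log axis) of 9 small subunit genes in each library, with one symbol per library. Aged *tra1Q3* values of *RPS0A*, *RPS1B*, *RPS24B* and *RPS16B* lie below all aged *TRA1* values, and those of *RPS16A* lie above them. Replicate 2 of aged *TRA1* cells is the highest of its group at *RPS14B* and *RPS9A*. It is also the highest at *RPS0A*, *RPS1B*, *RPS24B*, *RPS16B* and *RPS16A*.

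The 8 proteins with a single gene could not shift between copies. Of their genes, 6 were lower in *tra1Q3* cells at day 3, against 36.4% of all genes tested. *RPS3*, for a protein at the mRNA entry, read 6258, 9504 and 5765 in aged *TRA1* cells and 2469, 2723 and 2499.8 in aged *tra1Q3* cells, with a log2 fold change of -1.38 ± 0.187 (SE, edgeR adjusted p = 0.000433). Every *tra1Q3* library was lower than every *TRA1* library. *RPS20* was at -0.69, *RPS31*, which is made as a fusion with ubiquitin, at -0.57, *RPS2* at -0.42 and *RPS15* at -0.38, with edgeR adjusted p-values from 0.000714 to 0.0119. *RPS12*, for a protein of the beak, was not called at -0.17 ± 0.099 (SE, edgeR adjusted p = 0.167). *RPS13* read 5430.3, 6759.5 and 4876 in aged *TRA1* and 5252, 5647 and 5045 in aged *tra1Q3* cells, which overlap, and its log2 fold change was 0.00 ± 0.128 (SE, edgeR adjusted p = 0.992). Values thus ran from -1.38 to 0.00 even where 1 gene encodes the protein.

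Most members of each subset by position in the subunit, introns or copy were lower in *tra1Q3* cells at day 3. Of all genes tested in that comparison, 36.4% were lower and 35.1% higher. There, 17 of 22 genes for head proteins were lower and 1 higher, with a median of -0.91, and 27 of 34 genes for body and platform proteins were lower, with a median of -1.14. Among copies A, 17 of 24 were lower and 1 higher (median -0.94), and among copies B, 21 of 24 were lower (median -1.26). Of the 36 genes with an intron, 26 were lower and 1 higher (median -1.03), and of the 20 without one, 18 were lower (median -0.97). Among members with at least 50% unique windows, 40 of 52 were lower and 1 higher, with a median of -0.91. None of these differences between subsets was tested.

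In *TRA1* cells, nearly all members were lower at day 3 than at day 0. Day 0 cultures were young and day 3 cultures were in stationary phase, so age and growth phase cannot be told apart. Of 56, 55 fell, against 39.8% of all genes tested, none rose, against 41.5% (edgeR, adjusted p of 0.05 or less). All 55 fell by more than 1 on the log2 scale, against 19.8% of all genes lower and 20.1% higher by that much. The median change was -2.67, beside 0.03 for all genes. *RPS22A* (YJL190C, chrX:74910-75302), for a protein bound to the central part of 18S rRNA, went from 23683, 25404 and 22419 to 1302, 1689.6 and 1276 normalized counts. All aged libraries were far lower, a log2 change of -4.07 ± 0.12 (SE, edgeR adjusted p = 3.92e-11), or 16.8-fold. *RPS28B*, whose transcript is known to be destabilized by the Rps28 protein, went from 15742 ± 803 to 1213 ± 205 (SD), a log2 change of -3.70 ± 0.122 (SE, edgeR adjusted p = 8.7e-11). *RPS26B*, for a protein at the mRNA exit that yeast ribosomes can lose under stress, changed by -3.41 ± 0.183 (SE, edgeR adjusted p = 4.78e-09).

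The member not called was *RPS14B* (YJL191W, chrX:73787-74611), which lies beside *RPS22A* on chromosome X. It read 4172, 4368 and 4382 at day 0 and 2553, 6047 and 2357 at day 3 in *TRA1* cells. Replicate 2 was above all day 0 libraries and the other aged libraries were below them, and the log2 change was -0.24 ± 0.273 (SE, edgeR adjusted p = 0.431). Without replicate 2 it was -0.80 and was called (edgeR adjusted p = 2.2e-09). The next smallest decreases were *RPS27A* at -1.34 ± 0.218 (SE, edgeR adjusted p = 0.000108) and *RPS30A*, for a protein near the decoding center, at -1.47 ± 0.178 (SE, edgeR adjusted p = 8.32e-06).

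In *tra1Q3* cells the decrease with age was larger at most members. All 56 fell by more than 1 on the log2 scale, against 42.1% of all genes called lower and 40.9% called higher (23.4% and 22.7% past that size). The median change was -3.82, beside -0.01 for all genes. *RPS1B* went from 47714, 47642 and 49152 to 1502, 1592 and 1523 normalized counts, a log2 change of -4.97 ± 0.0892 (SE, edgeR adjusted p = 3.85e-12), or 31.3-fold. *RPS22A* changed by -4.81 ± 0.125 (SE, edgeR adjusted p = 9.47e-12) and *RPS9B*, the major gene for Rps9, by -4.67 ± 0.139 (SE, edgeR adjusted p = 2.67e-11). The smallest decreases were at *RPS27A*, from 4119, 3906 and 4028 to 1564, 1599 and 1527, a log2 change of -1.36 ± 0.218 (SE, edgeR adjusted p = 9.13e-05), then *RPS14B* at -1.56 ± 0.279 (SE, edgeR adjusted p = 0.000226) and *RPS16A* at -1.94 ± 0.0774 (SE, edgeR adjusted p = 2.97e-10). Even at these genes every aged *tra1Q3* library was below every *tra1Q3* library of day 0.

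**Figure D4:**
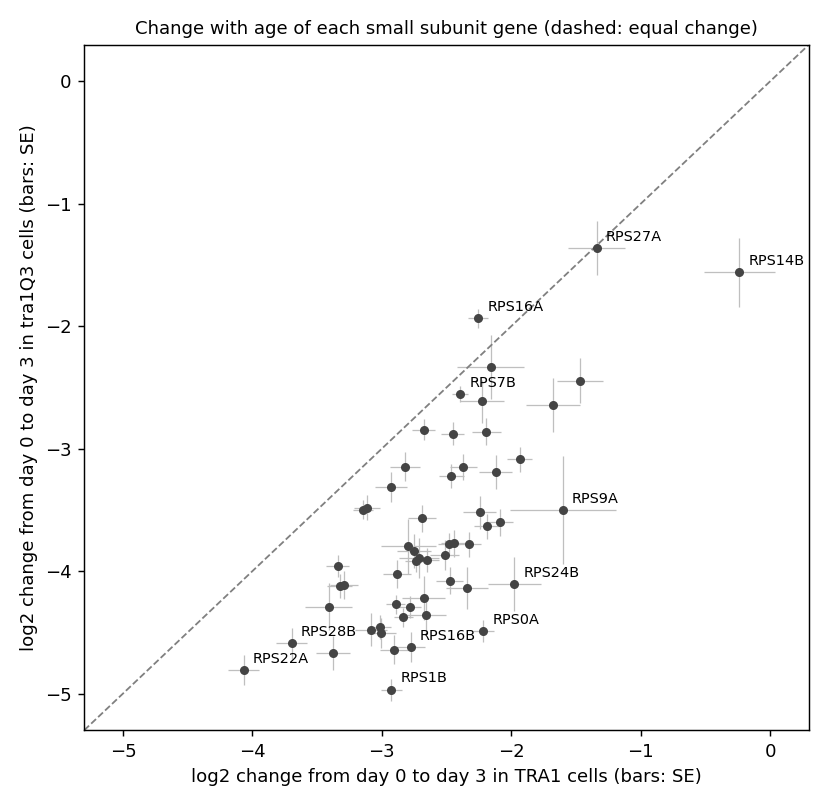
Log2 change with age, day 3 over day 0, of *TRA1* cells (x axis) and *tra1Q3* cells (y axis) for each of the 56 genes, with SEs as bars and a dashed line where both changes are equal. Most genes lie below the line, *RPS16A* lies above it, and *RPS14B* has the smallest change in *TRA1* cells (-0.24).

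Whether the change with age differed between the genotypes was tested as the age by genotype interaction, scored as the log2 change in *TRA1* cells minus that in *tra1Q3* cells. It uses the same libraries as the comparisons above. Scores were positive, that is, *tra1Q3* cells lost more, at 48 of 56 members, against 39.0% of all genes, negative at 1, against 29.7%, and not called at 7 (edgeR, adjusted p of 0.05 or less). Of the 48, 33 exceeded 1, against 17.9% of all genes, and the median score was 1.17 beside 0.15 for all genes. Without replicate 2 of aged *TRA1* cells the median was 0.94, and without *tra1Q3* replicates 2 and 3 of day 0 it was 1.14. The latter fit has 1 *tra1Q3* library at day 0, assumed to vary like the other groups, so only its median is given. The highest scores were 2.28 ± 0.112 (SE, edgeR adjusted p = 1.49e-08) at *RPS0A*, 2.13 ± 0.281 (SE, edgeR adjusted p = 3.47e-05) at *RPS24B* and 2.04 ± 0.108 (SE, edgeR adjusted p = 2.47e-08) at *RPS1B*. The mean of *RPS0A* in *TRA1* cells was 23174 ± 391 normalized counts when young and 4989 ± 437 when aged, and in *tra1Q3* cells it was 23273 ± 1499 and 1035 ± 31.8 (SD, n = 3). The negative score was at *RPS16A*, -0.32 ± 0.106 (SE, edgeR adjusted p = 0.0181), and was not called under library totals or with the replicate block (edgeR adjusted p of 0.195 and 0.0651). *RPS27A* scored 0.02 ± 0.303 (SE, edgeR adjusted p = 0.955) and *RPS7B* 0.16 ± 0.0853 (SE, edgeR adjusted p = 0.116).

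Within a pair, the share of copy A in the counts of both copies needs no scaling between libraries. At day 0 the genotypes differed in this share without overlap in 16 of 24 pairs. Counts of single genes did not overlap at 36.2% of all genes higher and 35.3% lower in *tra1Q3* cells, and no such share was computed for other pairs. The median difference over all 24 pairs was 3.52 percentage points, and 1 pair differed by more than 10 points. That pair was Rps28, with a copy A share of 45.3%, 49.4% and 47.5% in *TRA1* cells and 60.7%, 64.1% and 64.00% in *tra1Q3* cells, a difference of 15.5 points. Rps9 went from 13.2% ± 0.652 to 21.7% ± 0.886 (SD, n = 3), and Rps21 and Rps25 gained 7.0 and 6.84 points. Both copies were called in opposite directions at day 0 for Rps25 and Rps28, with copy A higher and copy B lower in *tra1Q3* cells. Each exact two-sided permutation test of a share without overlap gave p = 0.1, the smallest possible.

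At day 3 the copies stood further apart. The share of copy A did not overlap between the genotypes in 13 of 24 pairs. Counts of single genes did not overlap at 42.4% of all genes lower and 34.8% higher in *tra1Q3* cells. The median difference in share was 9.35 points, with more than 10 points in 12 pairs. The share of *RPS16A* was 56.3%, 51.8% and 56.1% in replicates 1 to 3 of aged *TRA1* cells and 84.7%, 83.8% and 83.3% in replicates 4, 2 and 3 of aged *tra1Q3* cells. Each aged *tra1Q3* library was thus far above the *TRA1* libraries, by 29.2 points between the means, whereas at day 0 the means were 45.5% ± 0.442 and 44.8% ± 0.37 (SD, n = 3). For Rps27 the share was 38.2%, 47.3% and 35.2% in aged *TRA1* and 63.4%, 65.97% and 63.2% in aged *tra1Q3* cells, higher in *tra1Q3* cells by 23.96 points. Rps7 went the other way, with 60.05% ± 2.84 against 39.95% ± 2.04. In 15 pairs both copies were lower in aged *tra1Q3* cells, in 7 only one copy was called, in 1 (Rps14) neither was, and Rps16 was the one pair with copies called in opposite directions. The log2 fold changes of the copies differed by more than 1 in 7 pairs.

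Copy shares differed between day 0 and day 3 in both genotypes. In *TRA1* cells the share of copy A did not overlap between the ages in 20 of 24 pairs. Counts of single genes did not overlap at 2539 of 6247 genes higher and 2497 lower with age. The share of copy A went from 90.2%, 89.3% and 89.1% to 69.97%, 50.3% and 68.97% for Rps14 and from 81.2% ± 0.658 to 55.3% ± 7.93 for Rps22, the 2 pairs that moved most toward copy B. Rps28 went from 47.4% ± 2.02 to 69.4% ± 1.86 and Rps9 from 13.2% ± 0.652 to 30.7% ± 13.01, toward copy A. The shares of Rps14, Rps22 and Rps9 in aged *TRA1* cells spread widely because of replicate 2, where copy A held 50.3%, 46.2% and 45.6%. In *tra1Q3* cells all 24 pairs moved without overlap, beside 2774 of 6247 single genes higher and 2832 lower without overlap. Rps16 went from 44.8% ± 0.37 to 83.9% ± 0.705 and Rps27 from 28.8% ± 2.07 to 64.2% ± 1.54, toward copy A, and Rps22 from 85.5% ± 0.298 to 51.5% ± 0.95 and Rps7 from 73.9% ± 0.568 to 39.95% ± 2.04, toward copy B. For Rps16, Rps27 and Rps7 the minor copy of day 0 was thus the major copy in aged *tra1Q3* cells. For Rps6, with few unique windows, the aged means were 50% ± 3.59 in *TRA1* and 49.1% ± 0.837 in *tra1Q3* cells.

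**Figure D5:**
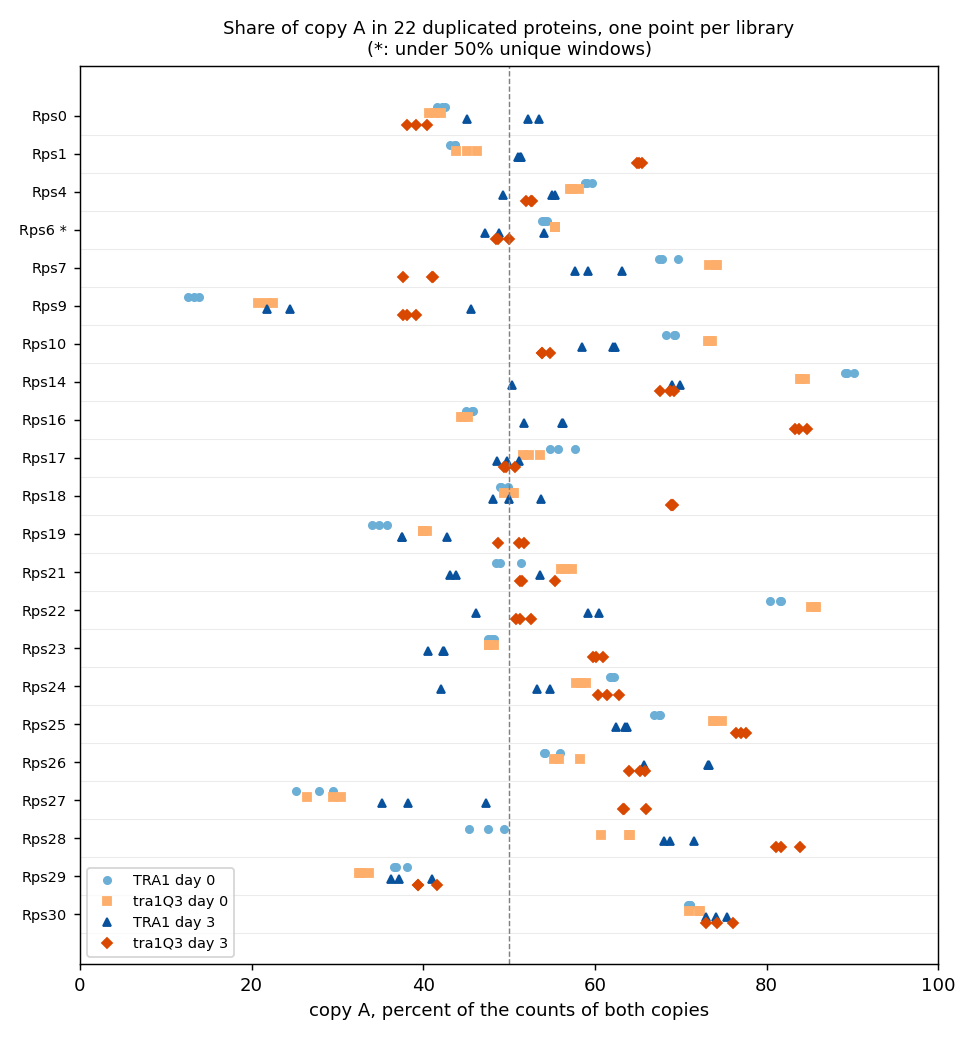
Share of copy A in the counts of both copies for 22 duplicated proteins, in percent, with one symbol per library, the dashed line at equal shares and an asterisk at Rps6, which has under 50% unique windows. Aged *tra1Q3* libraries lie apart from aged *TRA1* libraries at Rps16 (83.9% against 54.7%) and Rps27 (64.2% against 40.2%), and to the left of them at Rps7.

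Added over copies and divided by coding length, the transcript levels of the 32 proteins were more alike at day 0 than at day 3. In *TRA1* cells at day 0 the highest level, 169717 ± 9552 normalized counts per kb of coding sequence for Rps31, was 3.25 times the lowest, 52292 ± 265 for Rps2 (SD, n = 3), and in *tra1Q3* cells the ratio was 3.38, from Rps2 to Rps28. In aged cells the ratio was 8.15 in *TRA1* cells, from Rps2 at 5161 ± 406 to Rps30 at 42082 ± 14451, and 6.42 in *tra1Q3* cells, from Rps0 at 3477 ± 64.4 to Rps30 at 22324 ± 262. The coefficient of variation over the proteins was 27.5% and 30.2% at day 0 and 40.9% and 52.4% at day 3 in *TRA1* and *tra1Q3* cells. In aged *tra1Q3* cells, Rps3 at 3546 ± 191 and Rps2 at 3590.3 ± 131 lay above Rps0 by less than their own SDs. Over single genes the ratio of the highest to the lowest level per kb was 17.1 and 16.6 at day 0, with *RPS9A* lowest in *TRA1* and *RPS22B* lowest in *tra1Q3* cells. It was 9.91 and 12.2 at day 3, and over both copies the spread was thus smaller than over single genes in each group. Levels of Rps2 and Rps27 can be too low where their overlapping neighbors cost reads, and that of Rps6 where reads map to both copies. Division by coding length did not allow for read length. It can thus overstate the shortest genes, such as *RPS30A* with 192 coding bases and *RPS28A* with 204.

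Rps16 illustrates the difference between a copy and the sum. Added over both copies it was at 19115 ± 2371 normalized counts per kb in aged *TRA1* cells and at 15826 ± 413 in aged *tra1Q3* cells, a log2 ratio of -0.27. The corresponding log2 ratio was -1.93 for Rps0, -1.62 for Rps1 and -1.56 for Rps24. It was -0.25 for Rps28, -0.27 for Rps14 and -0.10 for Rps13. Rps6, which is phosphorylated downstream of TORC1, had -1.42 and Rps26 -1.15. These ratios are descriptions of group means, with no test, and rest on counts scaled over all 12 libraries, whereas the log2 fold changes of single genes at day 3 were scaled within that day (0.00 for *RPS13*).

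Rap1 binds upstream of most ribosomal protein genes, and the letters ACCCNNACA, a core of its site, were searched on both strands of the 500 bases upstream of each start codon. They were found at 18 of 56 members (32.1%), at 36 of 81 large subunit genes (44.4%) and at 354 of all 6658 genes with a full window (5.32%). *RPS0A* and *RPS16A*, the lowest and highest members at day 3, held 1 and 2 matches, and *RPS16B* held 2. For each gene, the stretch with the match nearest the start codon is shown 5′ to 3′ in the direction of the gene, with that match in capitals.
RPS0A, chrVII:920082-920111, forward strand: atattaaaaaACCCAGACAtaaagaaaaaa
RPS16A, chrXIII:551611-551640, forward strand: acatattggcACCCATACAttataaaatca
RPS16B, chrIV:308132-308161, reverse strand: cagaaaaaacACCCATACAtgttgaaaaat
At day 3, 15 of the 18 members with a match were lower in *tra1Q3* cells and 1 was higher, with a median log2 fold change of -1.09. Of the 38 without one, 29 were lower, with a median of -0.97. Of all genes tested, 36.4% were lower and 35.1% higher. With age, the medians with and without a match were -2.72 and -2.56 in *TRA1* cells and -3.88 and -3.78 in *tra1Q3* cells. *RPS1B* and *RPS24B*, the next lowest members at day 3, held no match. A match is a description of the sequence only, and no match says only that these letters are not in the window.

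Of 13 genes for regulators of ribosomal protein transcription, 9 were lower and 1 higher in *tra1Q3* cells at day 0, against 33.7% and 35.0% of all genes, and 8 were lower and 3 higher at day 3, against 36.4% and 35.1% (edgeR, adjusted p of 0.05 or less). At day 3 the corepressor gene *CRF1* read 3024, 2392 and 3572 normalized counts in *TRA1* cells and 345, 389.5 and 366 in *tra1Q3* cells, without overlap, a log2 fold change of -2.93 ± 0.163 (SE, edgeR adjusted p = 7.75e-06). The genes for a related pair of repressors that act on ribosome biogenesis genes went opposite ways. *TOD6* was at -2.39 ± 0.158 (SE, edgeR adjusted p = 1.53e-05), and *DOT6* read 7967 ± 62.4 in *TRA1* and 46141 ± 1503 in *tra1Q3* cells (SD, n = 3), a log2 fold change of 2.63 ± 0.112 (SE, edgeR adjusted p = 3.4e-06). *RAP1* was higher in aged *tra1Q3* cells at 1.30 and *HMO1*, for a promoter-bound protein, at 0.51. *STB3* at -1.20, *UTP22* at -1.13, the kinase gene *SCH9* at -0.73, the coactivator gene *IFH1* at -0.51, *SFP1* at -0.27 and *TOR1* at -0.24 were lower. *FHL1*, for the factor that recruits Ifh1, was at -0.03 ± 0.118 (SE, edgeR adjusted p = 0.821) and *TOR2* at -0.25 ± 0.12 (SE, edgeR adjusted p = 0.0935). With age, 9 of the 13 rose and 3 fell in *TRA1* cells, against 41.5% and 39.8% of all genes, and 5 rose and 6 fell in *tra1Q3* cells, against 40.9% and 42.1%.

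Of 14 genes for assembly and export of the small subunit, 6 were lower and 5 higher in aged *tra1Q3* cells, near the 36.4% and 35.1% of all genes, with a median log2 fold change of -0.35. *TSR1* (-1.24), *LTV1* (-1.14) and *TSR2* (-1.11), whose product escorts Rps26, were the lowest. *YAR1*, for the chaperone of Rps3, read 1354, 1496 and 1142 in *TRA1* and 4582, 4859 and 4537 in *tra1Q3* cells, without overlap, which gave a log2 fold change of 1.91 ± 0.111 (SE, edgeR adjusted p = 9.19e-06). The kinase gene *RIO1* was at 1.34 and *FAP7*, for a factor that handles Rps14, at 0.68. With age, 11 of these genes fell and 1 rose in *TRA1* cells, against 39.8% and 41.5% of all genes, and 12 fell and 2 rose in *tra1Q3* cells, against 42.1% and 40.9%. Of 6 genes for proteins that bind the ribosome, 4 were lower and 2 higher in aged *tra1Q3* cells, against 36.4% and 35.1% of all genes. *STM1*, whose product clamps dormant ribosomes, read 7722, 10212 and 7297 in *TRA1* and 2674, 2789.9 and 2649 in *tra1Q3* cells, a log2 fold change of -1.54 ± 0.136 (SE, edgeR adjusted p = 5.39e-05). *ASC1*, for a protein on the head, was at -0.98 ± 0.193 (SE, edgeR adjusted p = 0.00278), *LSO2* at -0.84 and *TMA19* at -0.50. *MBF1*, for a protein that binds stalled ribosomes, read 18286 ± 1354 in *TRA1* and 123071 ± 3275 in *tra1Q3* cells (SD, n = 3), a log2 fold change of 2.85 ± 0.147 (SE, edgeR adjusted p = 5.92e-06), and *GCN20* was at 0.61.

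Most genes of the large subunit were likewise lower at day 3, and no difference between the subunits was tested. Of 81, 35 were higher and 9 lower in *tra1Q3* cells at day 0, against 35.0% and 33.7% of all genes. At day 3, 63 were lower and 5 higher, against 36.4% and 35.1%, with a median log2 fold change of -0.91 beside -1.01 for the small subunit. With age, 75 fell in *TRA1* cells, against 39.8% of all genes, and 79 in *tra1Q3* cells, against 42.1%, and none rose, against 41.5% and 40.9%. The interaction score was positive at 64 and negative at 3, against 39.0% and 29.7%, with a median of 1.07. Their log2 fold changes at day 3 ran from -2.44 to 1.67, and those of the small subunit genes from -2.17 to 0.45.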

How the data were processed

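Poly dT selected RNA was sequenced from both ends. After trimming, the authors mapped reads with STAR 2.5.4b against R64-2-1 of strain S288C, dropped reads with more than one location and used featureCounts 1.6.0 on coding sequences, with no strand option. They tested with DESeq2 1.26.0. The strain is W303, so reads over differences from S288C can be lost. What the authors deposited are counts for each gene without normalization, as a column for read pairs and a column for single reads of each library, and these were added (single reads were 12.5% to 18.1%). The labels name mid-log growth in synthetic complete medium, and the paper gives dilution of saturated cultures into minus-leucine medium.

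One entry without a gene name, with 0.0851% of the counts, was left out. The fits used edgeR 4.0.16 (R 4.3.3, with TMM, glmQLFit and glmQLFTest) for genes with at least 10 counts in 3 libraries, the genotypes within each day and the changes with age and the interaction in 1 fit of all 12 libraries. Genes were called at a Benjamini-Hochberg adjusted p of 0.05 or less over all genes tested. The SE beside a log2 fold change or score is its absolute value divided by the square root of the quasi-likelihood F statistic. It is not an output of edgeR. Normalized counts are counts scaled by TMM library sizes over all 12 libraries, and overlap of groups was read from them. Single values were compared with exact permutation tests (scipy 1.17.1). The scripts were tested on simulated data. By locus tag, 6008 genes were found in the RefSeq annotation. Coding segments were the same for 6003, including all 56 members.

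The members, gene lists and tests were chosen with earlier results of these data known. The genes named are, for each comparison, the 3 highest and 3 lowest members, genes without a second copy, the 4 pairs with the largest difference in copy share, a pair with few unique windows, members with known roles and genes of the 3 lists of regulators, assembly factors and ribosome-bound proteins. Named copies of these pairs are given beside them. A few members that enter the fits and counts are not reported by name here. As alternatives, results were computed again with library totals, upper quartile scaling, DESeq2 1.42.0, the size factors of DESeq2, TMM without ribosomal protein genes, no filter on low counts, 1 fit of all libraries, a replicate block, pairs of reads only, totals without mitochondrial genes, pairs of copies with at least 50% unique windows, and each library left out in turn. Leaving out replicates 2 and 3 of *tra1Q3* cells at day 0 together was chosen after seeing the data.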

Additional observations from a re-analysis of the deposited data

Results flagged for a closer look

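Among the members named for the interaction, 4 changed differently with age in the genotypes by the test of that difference itself (quasi-likelihood test of edgeR, Benjamini-Hochberg adjustment). They were named for the size of this same score, so the test is no separate support for them. Of all 56 members, 48 had a positive score called and 1 a negative one, so the call does not set these 4 apart. The log2 change in *TRA1* cells minus that in *tra1Q3* cells was 2.28 for *RPS0A* (adjusted p = 1.49e-08), 2.13 for *RPS24B* (adjusted p = 3.47e-05) and 2.04 for *RPS1B* (adjusted p = 2.47e-08), so these fell more in *tra1Q3* cells. It was -0.32 for *RPS16A* (adjusted p = 0.0181), the one member called as falling more in *TRA1* cells. This call was lost under library totals (adjusted p = 0.195) and with the replicate block (adjusted p = 0.0651). The value of *RPS24B* was 1.76 without replicate 2 of aged *TRA1* cells.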

How the results depend on the processing

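No direction of a median over the members changed in the comparisons of age, day 3 or the interaction. The counts of members below are given without the shares of all genes called under the same settings. They describe the dependence on processing only. Under library totals, the members lower at day 0 numbered 19, those higher at day 3 and negative in the interaction numbered 0, and the medians were -1.34 at day 3 and -2.48 for age in *TRA1* cells, beside -0.31 and 0.21 over all genes. Upper quartile scaling gave 24 members higher at day 0, and 1 fit of all 12 libraries gave 4 higher and 2 lower. With pairs of reads only, the share in aged *tra1Q3* cells was 0.477%. The deviations of libraries with the same replicate number correlated at -0.11 to 0.004, and those of libraries with different numbers at -0.04 to 0.09. Deviations from the mean of 3 libraries are bound to each other, so these values cannot decide whether libraries were paired. With the replicate block, no member was higher at day 3 and none negative in the interaction, and the other counts stayed within 1.5 times. At day 3, replicate 1 exists only for *TRA1* cells and replicate 4 only for *tra1Q3* cells. The block fit of that day thus compares the genotypes through replicates 2 and 3 alone, and a call lost there need not mean a smaller difference. Leaving out 1 library at a time gave 13 to 20 higher and 4 to 8 lower members at day 0, 1 to 3 higher and 40 to 48 lower at day 3 with a median of -1.14 to -0.83, 55 to 56 lower for age in *TRA1* cells, and 47 to 51 positive and 1 to 3 negative in the interaction with a median of 0.94 to 1.24. Without both *tra1Q3* day 0 libraries with aged transcripts, the fit has 1 *tra1Q3* library at day 0, assumed to vary like the other groups. No calls are given for it.

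Values near 0 changed sign. *RPS28A* at day 3 was -0.21 under library totals and -0.0059 in 1 fit of all libraries. *RPS27A* at day 3 was -0.24 and -0.0096 under these, and -0.14 to 0.49 with 1 library left out. Its interaction score was -0.021 with the size factors of DESeq2 and with DESeq2, -0.0022 with upper quartile scaling and -0.39 to 0.25 with 1 library left out. The causes were not tested, and with 3 libraries a group an exact permutation test cannot go below 0.1.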
